A study of Homo sapiens with 58 samples.

Results

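The candidate regulatory elements (REs) at 7 SOXB and SOXC genes were examined for their accessibility in human cranial neural crest cells (CNCCs) whose SOX9 level was lowered stepwise. An RE was assigned to a gene when its midpoint lay inside the gene body or within 100 kb of a GENCODE v44 start site of SOX1, SOX2, SOX14, SOX21, SOX4, SOX11 or SOX12, which gave 95 of the 151457 REs of the ATAC-seq count table on hg38. SOX2 contributed 15 REs, SOX1 12, SOX21 13, SOX14 6, SOX12 26, SOX4 13 and SOX11 10. REs were numbered along the chromosome within each locus, so that SOX4-RE2 is the second RE of the SOX4 locus. No measured value entered the choice.

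All cells came from H9, a human embryonic stem cell line differentiated in culture to passage 4 CNCCs. SOX9-tagged cells, from the clones S9CC13 and S9CC47, carried an FKBP12-F36V degradation tag with mNeonGreen and V5 on SOX9, so that the small molecule dTAGV-1 triggers degradation of the protein, and WT cells carried no tag. SOX9-tagged cells received 0, 0.5, 1.6, 5, 16 or 500 nM dTAGV-1 for 48 h, with relative SOX9 levels given in the labels as 100, 77.9, 51.7, 25.8, 8.14 and 0.95%, in 7 replicates per dose from 6 differentiation batches. WT cells received 0 or 500 nM for 48 h in 2 replicates each. A time course in batches R4 and R5 held SOX9-tagged (S9CC13 in the sample labels) and WT cells under DMSO vehicle, 3 h of 500 nM or 24 h of 500 nM, 2 samples per group. The vehicle samples were those of 24 h, and no 3 h vehicle was present. Each 3 h effect therefore compares 3 h of dTAGV-1 with 24 h of vehicle. The 0 nM arm also received DMSO, and each clone is a single edited line, so a property of a clone and an effect of the tag cannot be told apart. The 0 and 0.5 nM samples of S9CC13_R14 carried each other's concentration label, against their titles and stated SOX9 levels, and the titles were followed. The 5 nM sample of S9CC47_R6 stood apart from the other 5 doses of its replicate, with 15.4 CPM (counts scaled to library size) against 5.19 to 6.73 at SOX1-RE7, 42.7 against 15.9 to 17.4 at SOX11-RE4 and 37.5 against 19.8 to 28.2 at SOX12-RE10, and its part in the dose results was not tested beyond leaving that replicate out.

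SOX proteins bind DNA through an HMG box that recognises a short core related to ACAAAG and ACAATG, and they usually act together with partner factors. SOX1 and SOX2, of group B1, keep neural progenitors undifferentiated, with SOX2 also sustaining pluripotency, whereas SOX14 and SOX21, of group B2, act largely as repressors in neurogenesis. SOX4, SOX11 and SOX12, of group C, are activators with roles in neuronal differentiation, in mesenchyme and in neural crest derivatives, while SOX9 itself belongs to group E.

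After 48 h at 500 nM, 12 REs were less accessible and 5 more accessible, 17 of 95 (17.9%), against 24.1% of all REs (13.9% lower and 10.2% higher), a share not far from that background. The largest losses lay at the SOX1-RE10 and SOX4-RE2 elements, 39.6 kb downstream of SOX1 and 84.8 kb upstream of SOX4, with log2 fold changes of -2.97 and -2.63. None of the 5 REs covering a start site of SOX2, SOX21, SOX4, SOX11 or SOX12 passed the edgeR test at 500 nM, or that of DESeq2, and 1 of them had an unadjusted edgeR p under 0.05. Accessibility was measured in bulk, so fewer cells with an open RE and less opening per cell cannot be told apart.

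The sequences of the 5 REs called at 3 h are shown because accessibility at these sites fell within 3 h of dTAGV-1 addition, and they differ in SOX core content. Each run is the central 300 bases of the RE on the plus strand of hg38, with matches to the SOX cores ACAAAG or ACAATG on either strand in capitals (CTTTGT and CATTGT mark cores on the minus strand).
SOX4-RE2, chr6:21508786-21509085, in an intron of the long non-coding RNA gene LINC00581: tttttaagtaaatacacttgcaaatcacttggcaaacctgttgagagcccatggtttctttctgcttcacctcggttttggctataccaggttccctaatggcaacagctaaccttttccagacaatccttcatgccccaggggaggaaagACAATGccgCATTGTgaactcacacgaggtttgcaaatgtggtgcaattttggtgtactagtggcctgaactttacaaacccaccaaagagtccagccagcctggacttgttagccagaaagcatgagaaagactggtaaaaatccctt
SOX1-RE10, chr13:112106563-112106862, at an exon of the non-coding gene LINC00404 and within an intron of SOX1-OT: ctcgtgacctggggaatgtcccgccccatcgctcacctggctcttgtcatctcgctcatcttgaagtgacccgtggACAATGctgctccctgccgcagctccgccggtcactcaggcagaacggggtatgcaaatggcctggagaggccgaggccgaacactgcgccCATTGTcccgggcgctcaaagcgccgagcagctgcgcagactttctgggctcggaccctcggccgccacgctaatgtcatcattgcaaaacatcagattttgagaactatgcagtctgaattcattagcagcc
SOX2-RE15, chr3:181794250-181794549, in an intron of SOX2-OT: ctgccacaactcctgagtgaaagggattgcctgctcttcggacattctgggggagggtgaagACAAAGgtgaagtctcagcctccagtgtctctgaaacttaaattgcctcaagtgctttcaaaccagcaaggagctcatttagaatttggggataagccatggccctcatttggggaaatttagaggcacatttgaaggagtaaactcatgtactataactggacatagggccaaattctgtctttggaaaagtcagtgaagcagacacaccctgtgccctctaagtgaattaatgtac
SOX11-RE1, chr2:5609261-5609560, in an intron of LINC01248, upstream of SOX11: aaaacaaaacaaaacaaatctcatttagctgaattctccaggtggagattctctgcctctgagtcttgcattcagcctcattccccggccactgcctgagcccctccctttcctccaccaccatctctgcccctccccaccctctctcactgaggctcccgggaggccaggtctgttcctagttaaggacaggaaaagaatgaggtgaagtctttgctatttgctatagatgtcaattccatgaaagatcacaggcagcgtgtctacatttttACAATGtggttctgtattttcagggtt
SOX12-RE6, chr20:301135-301434, intergenic between ZCCHC3 and SOX12: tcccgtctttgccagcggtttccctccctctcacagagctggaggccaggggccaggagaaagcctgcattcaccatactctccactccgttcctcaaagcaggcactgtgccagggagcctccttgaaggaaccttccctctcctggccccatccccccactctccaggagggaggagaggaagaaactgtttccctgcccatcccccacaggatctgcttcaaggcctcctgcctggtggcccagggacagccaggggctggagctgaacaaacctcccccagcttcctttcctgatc

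SOX4-RE2 was the single RE of the 95 with 2 SOX cores facing each other at a short gap, ACAATG and CATTGT separated by 3 bases, centred 3.5 and 12.5 bases from the RE midpoint. Such a pair, with cores of either kind on opposite strands and a gap of 3 to 5 bases, was present in 328 of all 151457 REs (0.217%). Of these 328 REs, 255 (77.7%) were less accessible at 500 nM, with a median log2 fold change of -1.32, and 51 of them fell further than SOX4-RE2. In SOX1-RE10 both cores also faced each other, but with 85 bases between them. SOX2-RE15 held 1 core, SOX11-RE1 held 2 on the same strand, of which 1 lies in the bases shown, and SOX12-RE6 held none over its full length. At least 1 core was found in 40 of the 95 REs (42.1%), against 49.6% of all REs. It was found in 8 of the 12 members that were lower at 500 nM and in 3 of the 5 that were higher. Among all REs lower at 500 nM, 255 held the facing pair, 13246 held a core without it and 7613 held no core. A core match is only a short string of letters, and neither a match nor its absence was tested for SOX9 binding.

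In untreated SOX9-tagged cells the REs at start sites differed in level, given here as CPM (counts scaled to library size with TMM factors) per kb of RE. SOX4-RE6, over the SOX4 start, had the highest mean level of the 5 at 72.0 ± 5.98 CPM per kb (SD, n = 7), followed by SOX12-RE10 at 57.8 ± 17.7. These neighbours in the order overlapped, from 65.2 to 78.4 CPM per kb for SOX4-RE6 and from 36.3 to 82.7 for SOX12-RE10. SOX11-RE5 had 27.7 ± 5.64 CPM per kb and reached at most 36.0, below all SOX4-RE6 samples and below the lowest SOX12-RE10 sample. SOX2-RE9 at 12.4 ± 2.16 and SOX21-RE12 at 8.76 CPM per kb were lower still and overlapped each other (10.0 to 15.8 and 7.01 to 11.0). The start sites of SOX1 and SOX14 were covered by no RE, and the nearest, SOX1-RE5, reached 1.55 to 2.73 CPM in the 7 untreated samples. Over all their REs, the median level was 4.33 CPM per kb at the SOXB1 genes, 3.16 at the SOXB2 genes and 12.8 at the SOXC genes, beside 4.44 for the whole table.

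An RE covered a start site of all 8 cranial neural crest markers examined, among them TFAP2A, TWIST1 and NR2F1, with levels of 21.5 to 121 CPM per kb. No RE covered a start site of 3 of the 5 pluripotency markers (POU5F1, NANOG and ZFP42), and the other 2, LIN28B and DPPA4, had 23.3 and 7.85 CPM per kb. LIN28B thus lay inside the range of the neural crest markers, above PRRX1 at 21.5 CPM per kb. Among neural progenitor markers, PAX6 had 18.3 and OTX2 4.08 CPM per kb, while HES5 and NEUROG2 had no RE over a start site. Total counts ranged from 22905782 to 81040023 per sample, and p-values measure only the spread between these samples, labelled as separate differentiations or clones of 1 parental line.

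Of the 5 start-site REs, none was called at 500 nM and 1, SOX21-RE12, was called lower at 16 nM. At SOX4-RE6 the lowest, median and highest CPM were 32.7, 35.6 and 39.3 at 0 nM and 34.9, 37.4 and 39.1 at 500 nM, which gave 0.05 ± 0.06 (SE) as log2 fold change. At SOX11-RE5 the same values were 21.1, 23.8 and 34.4 CPM at 0 nM and 24.0, 25.5 and 38.1 at 500 nM (log2 fold change 0.10 ± 0.06). The treated and untreated groups overlapped over most of their range at both of these SOXC genes. SOX12-RE10 had 18.2, 25.8 and 41.4 CPM at 0 nM and 23.1, 29.3 and 43.1 at 500 nM. The log2 fold change there was 0.16 ± 0.07, with an edgeR adjusted p of 0.08. It was called higher with each replicate as a block (0.037), with the S9CC13_R14 samples exchanged (0.041) and without S9CC13_R13 (0.034). The largest spread was between differentiations, since the untreated S9CC13 samples of batches R10, R13 and R14 had 34.9 to 41.4 CPM and the other 4 untreated samples 18.2 to 25.8. Batches R10, R13 and R14 held S9CC13 alone, so clone and batch cannot be told apart in them. The other 4 samples include S9CC13 of batch R6 beside those of S9CC47, and the source of the spread was not tested.

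At the SOXB start sites, SOX2-RE9 had 8.85, 11.6 and 13.95 CPM at 0 nM and 6.99, 10.4 and 15.5 at 500 nM, and its log2 fold change was -0.12 ± 0.10. SOX2-RE10, over the coding exon and the most accessible RE of the locus per kb, had a log2 fold change of -0.06 ± 0.09. SOX21-RE12 had 5.74, 7.71 and 8.98 CPM at 0 nM and 4.24, 6.20 and 8.12 at 500 nM, and was lower in 7 of 7 replicates. Its log2 fold change of -0.20 ± 0.10 missed the threshold (edgeR adjusted p = 0.15), although at 16 nM it fell by 0.32 on the log2 scale (edgeR adjusted p = 0.02, but 0.073 without S9CC47_R8).

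**Figure D1:**
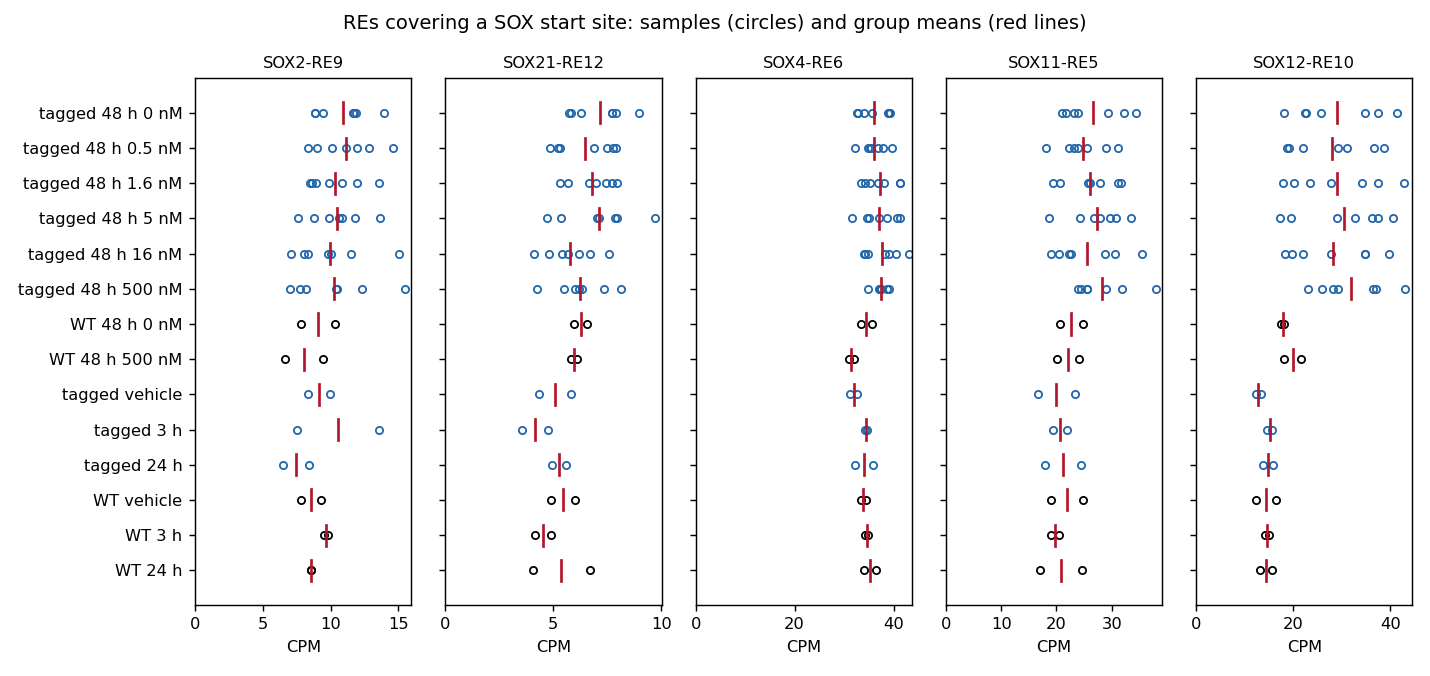
CPM (x axis) of the 5 REs that cover a start site of SOX2, SOX21, SOX4, SOX11 or SOX12 in each of 14 groups (rows). Circles are samples (blue, SOX9-tagged; black, WT) and red lines group means; the 7 untreated SOX9-tagged samples of SOX4-RE6 lie between 32.7 and 39.3 CPM and its 500 nM samples between 34.9 and 39.1.

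SOX1 held the member with the largest decrease. SOX1-RE10 (chr13:112106463-112106963) lies over the start of LINC00404 and had 2.98, 5.80 and 10.8 CPM as lowest, median and highest untreated value. At 500 nM these were 0.533, 0.766 and 1.35 CPM, so the groups did not overlap and all 7 replicates were lower (log2 fold change -2.97 ± 0.22, edgeR adjusted p = 1.1e-10). Its close neighbour SOX1-RE9 (chr13:112105876-112106376) fell from 1.22, 1.45 and 2.27 to 0.315, 0.616 and 0.942 CPM, again without overlap (log2 fold change -1.30 ± 0.21, edgeR adjusted p = 3.3e-05). Both lie 39.0 and 39.6 kb downstream of the SOX1 start. SOX1-RE12, 95.0 kb downstream, decreased by 0.56 on the log2 scale (edgeR adjusted p = 0.029), a call that was lost on leaving out S9CC13_R10, S9CC13_R13, S9CC13_R14, S9CC47_R5 or S9CC47_R8 (adjusted p of 0.13, 0.055, 0.088, 0.084 and 0.12). SOX1-RE7, the RE with most CPM at this locus, had 6.22, 8.07 and 19.5 CPM at 0 nM and 5.29, 8.22 and 18.0 at 500 nM, and was not called there (edgeR adjusted p = 0.23). At 16 nM it was called lower. That call was lost with the S9CC13_R14 samples exchanged and without S9CC13_R13 or S9CC47_R8 (edgeR adjusted p of 0.11, 0.097 and 0.052).

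Around SOX2, which lies within the long non-coding gene SOX2-OT, 2 REs were lower and 1 was higher at 500 nM. SOX2-RE15 (chr3:181793944-181794855), 82.5 kb downstream of the start, had 6.19, 8.96 and 12.4 CPM untreated and 4.16, 5.99 and 7.07 at 500 nM. The ranges overlapped between batches, but within every one of the 7 replicates the treated sample was lower (log2 fold change -0.66 ± 0.10, edgeR adjusted p = 2.3e-05). SOX2-RE11, 14.7 kb downstream over a SOX2-OT exon, decreased by 0.35 on the log2 scale, in 6 of 7 replicates (edgeR adjusted p = 0.0047). In the opposite direction, SOX2-RE1 (chr3:181623829-181624819), 87.6 kb upstream, rose in 7 of 7 replicates from 4.76, 5.86 and 7.46 to 7.03, 9.48 and 11.2 CPM (log2 fold change 0.58 ± 0.11, edgeR adjusted p = 0.00035).

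The SOXB2 loci showed no call in the lower direction at 500 nM. At SOX21 the adjacent intergenic elements SOX21-RE6 and SOX21-RE7, 29.8 and 28.9 kb downstream of the start, were higher with log2 fold changes of 0.52 ± 0.18 and 0.68 ± 0.16. SOX21-RE7 had 0.837, 1.04 and 1.22 CPM untreated and 1.08, 1.80 and 2.07 at 500 nM, higher in 7 of 7 replicates (edgeR adjusted p = 0.0022). The SOX21-RE6 call (edgeR adjusted p = 0.036) rested on few counts, a mean of 34.0 per untreated sample, and DESeq2 gave an adjusted p of 0.052. It was also lost on leaving out any one of S9CC13_R6, S9CC13_R10, S9CC13_R13, S9CC47_R5 or S9CC47_R8 (adjusted p from 0.0513 to 0.145). SOX21-RE3, which had the most CPM at the locus, changed by -0.13 ± 0.07 on the log2 scale (edgeR adjusted p = 0.19). None of the 6 SOX14 REs passed at 500 nM, with log2 fold changes from -0.27 to 0.09 and no unadjusted p under 0.05 in edgeR, and DESeq2 called none. SOX14-RE3, the RE with most CPM there, had 3.96, 4.83 and 5.71 CPM at 0 nM and 4.01, 4.68 and 6.16 at 500 nM.

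In the SOXC group, SOX4-RE2 (chr6:21508686-21509186) was the only member of the SOX4 locus with a large change. It had 1.81, 4.19 and 4.70 CPM untreated and 0.253, 0.523 and 1.27 at 500 nM, with no overlap and all 7 replicates lower (log2 fold change -2.63 ± 0.18, edgeR adjusted p = 4.9e-11). Among the untreated samples the S9CC13 samples of R10, R13 and R14 were low (1.81 to 2.56 CPM) and the others high (4.19 to 4.70). Within batch R6, which held both clones, S9CC13 had 4.19 and S9CC47 had 4.21 CPM. SOX4-RE8, 8.3 kb downstream, decreased by 0.46 on the log2 scale (edgeR adjusted p = 0.017), in 5 of 7 replicates, and was not called without S9CC13_R13, S9CC47_R5 or S9CC47_R8 (adjusted p of 0.064, 0.058 and 0.072). SOX4-RE4, the RE with most CPM at this locus, 5.8 kb upstream, changed by -0.12 ± 0.07 on the log2 scale (edgeR adjusted p = 0.23).

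At SOX11 a weak element became more accessible, at few counts. SOX11-RE9 (chr2:5713049-5713549), 20.9 kb downstream, was among the least accessible 1.4% of all REs per kb in untreated cells and had 0.420, 0.690 and 0.796 CPM there. At 500 nM it had 0.664, 1.09 and 2.54 CPM and was higher in 7 of 7 replicates, with the 3 S9CC47 samples (1.42 to 2.54) above the 4 S9CC13 samples (0.664 to 1.09). The log2 fold change was 0.86 ± 0.19 (edgeR adjusted p = 0.0016). No SOX11 RE was lower at 500 nM.

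SOX12 lies in a gene-dense stretch of chromosome 20, and its 26 REs are shared with C20orf96, ZCCHC3, NRSN2, TRIB3 and RBCK1, so that the assignment to SOX12 is by distance only. SOX12-RE6 (chr20:301035-301535) is 24.3 kb upstream of SOX12 but 3465 bp from a start site of ZCCHC3. It had 6.95, 12.7 and 14.7 CPM untreated and 5.21, 7.07 and 9.07 at 500 nM, lower in 7 of 7 replicates (log2 fold change -0.69 ± 0.09, edgeR adjusted p = 3.2e-06). SOX12-RE24, 75.1 kb downstream and nearer to RBCK1, fell by 0.65 on the log2 scale (edgeR adjusted p = 0.0063), with 1.91, 2.73 and 4.55 CPM untreated and 1.33, 1.99 and 2.34 at 500 nM. Without S9CC47_R8, which had the highest untreated value, its adjusted p was 0.055. SOX12-RE2, SOX12-RE3 and SOX12-RE20 decreased by 0.36, 0.25 and 0.34 on the log2 scale, each in 7 of 7 replicates. The first and second of these missed the threshold without S9CC13_R14 (adjusted p of 0.053 and 0.079), and SOX12-RE2 also without S9CC47_R8 (0.054). SOX12-RE14, at the NRSN2 start, was higher by 0.18 on the log2 scale (edgeR adjusted p = 0.026, but 0.11 without S9CC47_R8 and 0.057 by DESeq2). SOX12-RE8, the most accessible of the 95 per kb at 130 CPM per kb, had 56.3, 63.9 and 72.3 CPM at 0 nM and 56.6, 66.3 and 69.2 at 500 nM.

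**Figure D2:**
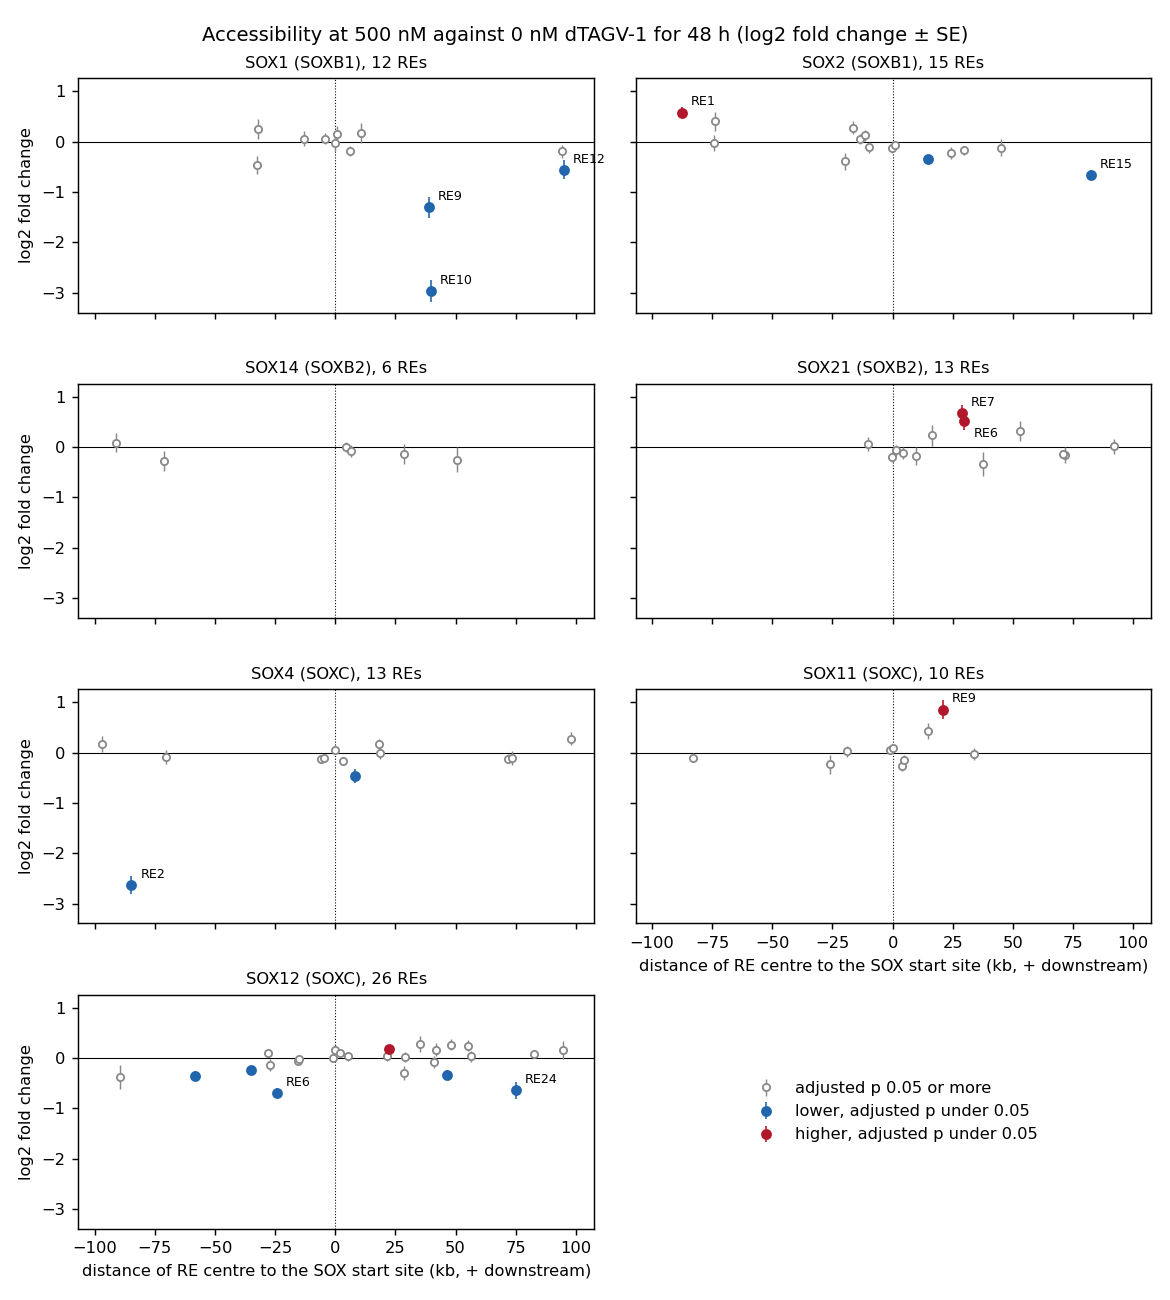
Log2 fold change at 500 nM against 0 nM for 48 h (y axis, bars ± SE) of each of the 95 REs by the distance of its centre from the SOX start site in kb (x axis, positive downstream), 1 panel per gene; filled points have an edgeR adjusted p under 0.05 (blue lower, red higher). SOX1-RE10 at -2.97 and SOX4-RE2 at -2.63 stand far below the other REs, and the REs nearest to the start sites lie near 0.

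**Figure D3:**
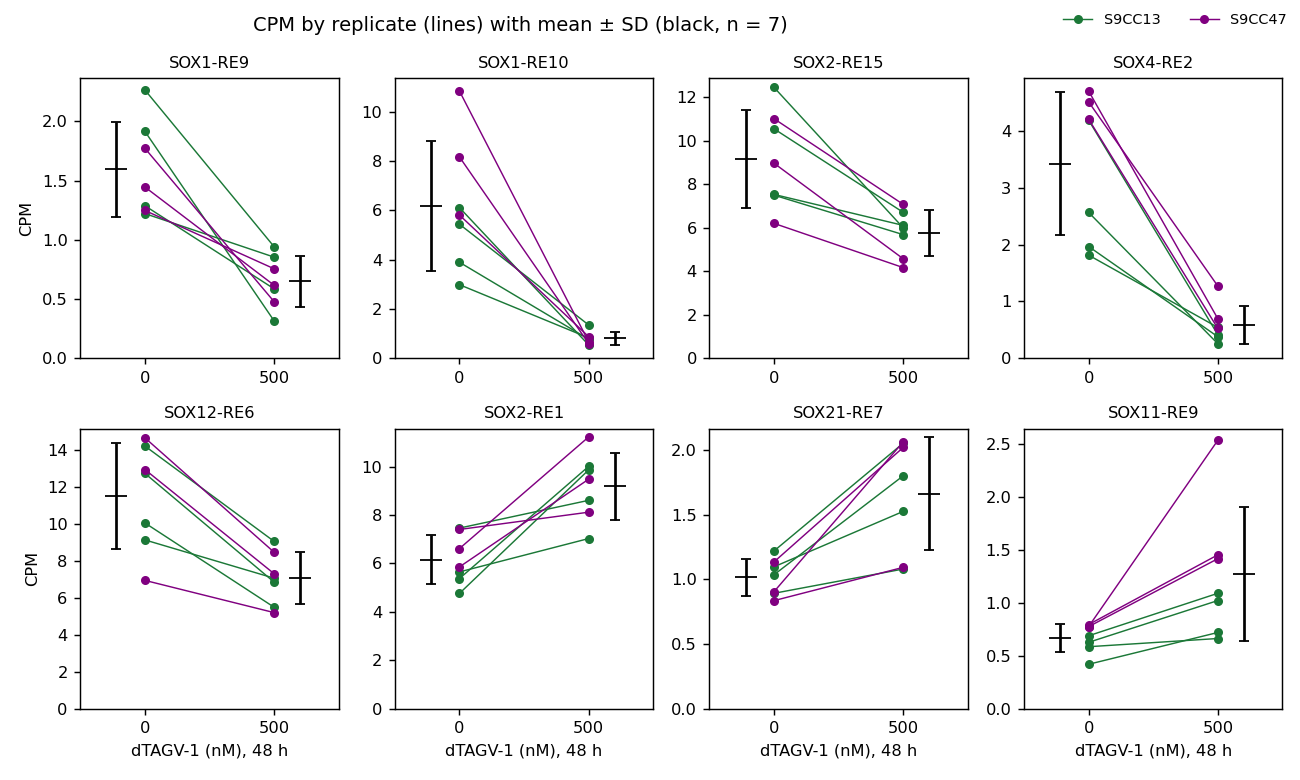
CPM (y axis) at 0 and 500 nM dTAGV-1 for 48 h (x axis) of 8 REs; each line joins the samples of 1 replicate (green, S9CC13; purple, S9CC47) and black bars give the mean ± SD (n = 7). All 7 replicates of SOX1-RE9, SOX1-RE10, SOX2-RE15, SOX4-RE2 and SOX12-RE6 fell, and all 7 of SOX2-RE1, SOX21-RE7 and SOX11-RE9 rose.

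By distance, 1 of 26 REs within 10 kb of a SOX start site was called at 500 nM, 10 of 42 REs at 10 to 50 kb and 6 of 27 REs farther away. At 16 nM the same distances had 3 of 26, 7 of 42 and 4 of 27, which differed less, and no share by distance was computed over all REs. By position relative to any annotated start, 7 of 38 promoter REs (within 1 kb) and 10 of 57 distal REs were called at 500 nM. Of the 25 REs nearest to a coding gene other than their SOX gene, 6 were called. Among all REs 24.1% were called at this dose, and no share was computed over all promoter or distal REs. The median log2 fold change was -0.06 over the 95 REs and 0.02 over all REs. In 3 REs, namely SOX1-RE9, SOX1-RE10 and SOX4-RE2, the 7 untreated and the 7 fully depleted samples did not overlap. The share without overlap was not computed over all REs, so this count has no background beside it.

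Intermediate SOX9 levels were compared with 0 nM to see where along the titration these REs moved. At 0.5 nM no member passed in edgeR or DESeq2 (2 at an unadjusted p under 0.05), as for all REs (0%), and leaving out S9CC13_R6 gave 2 calls. At 1.6 nM no member passed by either tool (6 at an unadjusted p under 0.05), against 0.0383% of all REs. With each replicate as a block, 1 member and 1558 of all REs were called there. That member, SOX12-RE6, fell by 0.25 on the log2 scale (edgeR adjusted p = 0.038). At 5 nM 6 members were called, 5 lower (SOX1-RE9, SOX1-RE10, SOX2-RE15, SOX4-RE2 and SOX12-RE6) and 1 higher (SOX11-RE9), against 5.32% of all REs. Without S9CC47_R6, whose 5 nM sample stood apart, 9 members were called, and 17338 in place of 8052 of all REs. The same omission gave 18 called members at 16 nM and 19 at 500 nM. The SOX11-RE9 call at 5 nM (edgeR adjusted p = 0.049) was lost by DESeq2 (0.11) and on leaving out any 1 replicate (0.059 to 0.15), and that of SOX2-RE15 (0.033) without S9CC13_R10, S9CC13_R6, S9CC47_R5 or S9CC47_R8 (0.081, 0.057, 0.15 and 0.13). At 16 nM 14 members were called, 11 lower and 3 higher, against 16.2%. That last member count was 25 with the replicate block (39497 of all REs), 23 without S9CC13_R6 (33526) and 9 without S9CC47_R8 (17513).

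The fitted SOX9 level at the midpoint of the response varied among the REs that moved most. This ED50 was read from a Hill curve whose limits were set to the mean batch-corrected CPM at 0 and 500 nM, and it is given as a description for the 11 called members whose log2 fold change was 0.5 or more in size. SOX12-RE6 had an ED50 of 48.0% SOX9 (41.7 to 50.5% when 1 replicate at a time was left out), SOX1-RE9 46.3% (41.0 to 54.2%) and SOX12-RE24 40.9% (31.9 to 51.0%), and these ranges overlapped. SOX1-RE10 had 32.5% (30.5 to 33.7%) and SOX2-RE15 30.6% (26.0 to 33.0%). SOX4-RE2 had 25.5% (23.1 to 27.0%), a range that did not meet that of SOX1-RE10. Such ranges are not confidence intervals, and no difference between ED50 values was tested. On a log2 CPM scale the ED50 of SOX4-RE2 was 13.7% and that of SOX1-RE10 20.7%, so the values depend on the scale. The order changed for other pairs, since SOX2-RE15 (25.8% on the log2 scale) then lay above SOX1-RE10, and SOX11-RE9 (21.4% on the CPM and 29.5% on the log2 scale) above SOX4-RE2.

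The CPM behind these values show the same course. SOX4-RE2 averaged 3.42 ± 1.26 CPM (SD, n = 7) in untreated cells and 3.57 ± 1.19 CPM with 0.5 nM. With 1.6 nM the mean was 2.86 ± 1.03 CPM and with 5 nM 1.90 ± 0.824 CPM, and it ended at 1.06 ± 0.311 CPM with 16 nM and 0.581 ± 0.334 CPM with 500 nM. Of its full change, 53.5% had occurred at 25.8% SOX9. SOX12-RE6 had made 42.4% of its full change at 51.7% SOX9 and 80.2% at 25.8% SOX9. The rising RE SOX2-RE1 had an ED50 of 12.4% (9.15 to 16.5%), with 35.3% of its change at 25.8% SOX9. SOX21-RE6, SOX1-RE12 and SOX21-RE7 had ED50 values of 13.1, 13.2 and 32.0%.

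**Figure D4:**
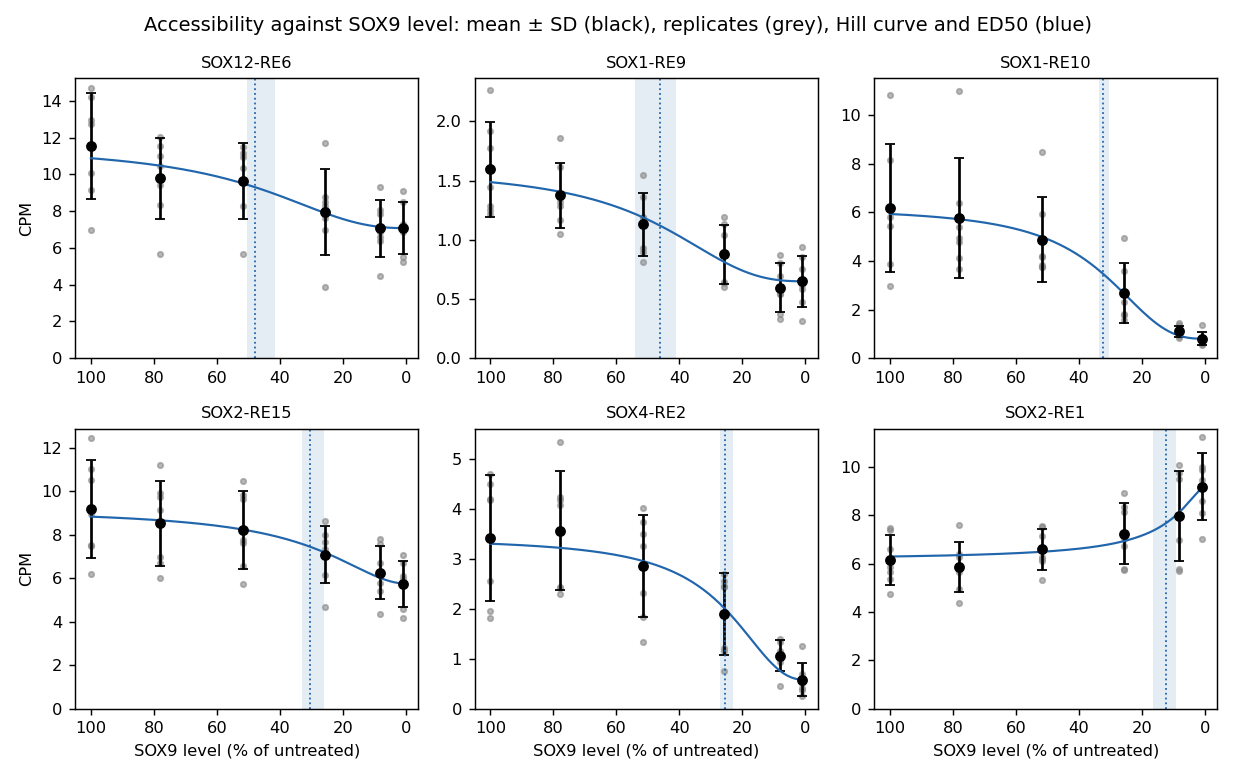
CPM (y axis) of 6 REs against the SOX9 level in % of untreated (x axis, falling to the right). Black points are the mean ± SD of 7 replicates (grey), blue lines the Hill curve and ED50, and shading the range of the ED50 with 1 replicate left out; the ED50 is 48.0% at SOX12-RE6, 25.5% at SOX4-RE2 and 12.4% at the rising SOX2-RE1.

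The time course addressed which REs changed shortly after full depletion. After 3 h, 5 members were less accessible and none more, against 8.34% of all REs. SOX4-RE2 had 5.03 and 3.62 CPM in the vehicle samples (R4 and R5) and 0.817 and 0.440 after 3 h, so that the log2 fold change was -2.87 ± 0.24 (edgeR adjusted p = 1.1e-07). SOX1-RE10 had 9.13 and 3.68 CPM under vehicle and 1.87 and 0.971 after 3 h (-2.19 ± 0.20, edgeR adjusted p = 3.2e-07). Within both batches the 3 h sample was below the vehicle sample at these REs. In WT cells SOX4-RE2 had 5.19 and 3.73 CPM under vehicle and 6.06 and 3.79 after 3 h, and SOX1-RE10 had 12.1 and 7.90 CPM under vehicle and 12.2 and 7.28 after 3 h.

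The other 3 rapid decreases were smaller. SOX2-RE15 went from 12.2 and 10.9 to 5.62 and 7.20 CPM (log2 fold change -0.91 ± 0.14, edgeR adjusted p = 0.00017), SOX12-RE6 from 9.31 and 16.8 to 6.97 and 11.0 CPM (-0.59 ± 0.12, adjusted p = 0.0032) and SOX11-RE1 from 11.9 and 16.7 to 9.66 and 12.2 CPM (-0.44 ± 0.11, adjusted p = 0.014, but 0.062 by DESeq2). SOX11-RE1, far upstream of SOX11 in an intron of LINC01248, was not called after 48 h at 500 nM (log2 fold change -0.10 ± 0.09). With 1 batch of SOX9-tagged samples left out, 2 (without R4) or 3 (without R5) of the 5 calls were kept, SOX4-RE2 and SOX1-RE10 in both cases. The neighbouring SOX1-RE9 showed no decrease at 3 h (1.02 and 0.542 CPM under vehicle, 0.800 and 1.02 after 3 h, log2 fold change 0.19 ± 0.33), at counts far lower than at SOX1-RE10.

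After 24 h, 12 members were called, 8 lower and 4 higher, against 14.6% of all REs. SOX4-RE2 reached 0.514 and 0.570 CPM (log2 fold change -3.05 ± 0.24) and SOX1-RE10 0.869 and 0.611 CPM (-3.11 ± 0.22). Among the 4 rises were those at SOX11-RE9 (1.21 ± 0.30) and SOX2-RE1 (0.44 ± 0.13), neither of which was called at 3 h. Both were lost by DESeq2 (adjusted p of 0.085 and 0.1) and when either batch of SOX9-tagged samples was left out. A further rise, at SOX2-RE5, went from 1.9 and 2.6 CPM under vehicle (R4 and R5) to 3.6 and 4.1 CPM after 24 h. DESeq2 kept its call, which was lost without the SOX9-tagged samples of R4 (log2 fold change 0.58). Fewer members were called at 24 h when either batch of SOX9-tagged samples was left out, and so were fewer of all REs.

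No member was called in WT cells. At 48 h none passed in edgeR or DESeq2 (8 at an unadjusted p under 0.05), against 0.303% of all REs, and at 3 and 24 h none passed by either tool (1 each at an unadjusted p under 0.05), against 0% and 0%. The difference between SOX9-tagged and WT effects, tested as an interaction, passed for 4 members at 3 h (5.2% of all REs) and 7 at 24 h (6.73%), all with a stronger decrease in tagged cells. It was -3.02 ± 0.30 on the log2 scale for SOX4-RE2 at 3 h (edgeR adjusted p = 3.1e-07) and -2.16 ± 0.24 for SOX1-RE10 (adjusted p = 1.6e-06). SOX2-RE15 and SOX12-RE6 followed with -0.77 ± 0.21 and -0.76 ± 0.20 (adjusted p of 0.034 and 0.019). SOX2-RE15 was lost by DESeq2 (0.064) and without the tagged R4 (0.67) or WT R5 (0.16) samples, and SOX12-RE6 without the tagged R4, tagged R5 or WT R5 samples (0.1, 0.24 and 0.14). Leaving out 1 batch of a genotype, which leaves 1 sample in each of its groups, changed which members passed at 3 h and at 24 h. Without the WT samples of R4 the difference at 3 h was 0.66 at SOX12-RE4, 0.62 at SOX12-RE9 and 0.49 at SOX12-RE14, opposite in sign to the calls above. Over all REs, too, more differences of positive sign passed in that fit than in the main one.

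**Figure D5:**
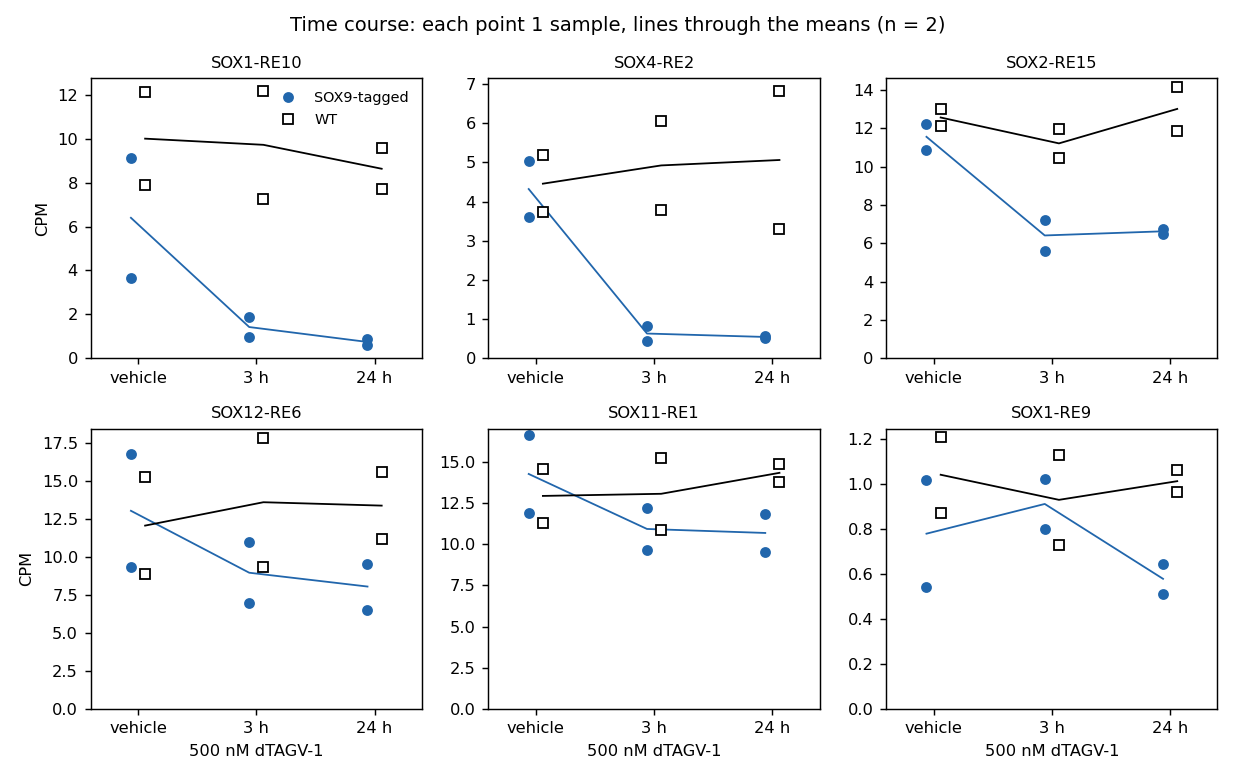
CPM (y axis) of 6 REs under vehicle and after 3 or 24 h of 500 nM dTAGV-1 (x axis). Filled blue circles are SOX9-tagged and open squares WT samples, with lines through the means of the 2 samples; at 3 h SOX4-RE2 has 0.817 and 0.440 CPM in tagged and 6.06 and 3.79 in WT cells.

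Untreated SOX9-tagged and WT cells were compared to see whether the tag itself came with a change. This used the 24 h vehicle samples of R4 and R5 together with the 48 h samples at 0 nM of R8. No member passed in edgeR or DESeq2 (6 at an unadjusted p under 0.05), against 0.95% of all REs. At SOX1-RE10 the tagged samples were lower than WT in all 3 batches, with 9.13 against 12.1 CPM in R4, 3.68 against 7.90 in R5 and 10.8 against 11.7 in R8. Its log2 difference was -0.49, and leaving out R4 or R8 gave edgeR adjusted p values of 0.017 and 0.0032. SOX4-RE2 had 5.03 against 5.19, 3.62 against 3.73 and 4.70 against 2.61 CPM in the same batches.

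For comparison, REs within the same distance of other SOX genes and of partner and target genes were counted at 500 nM, without a test of the difference. At SOX3, the remaining SOXB1 gene, 1 of 4 REs was lower and none higher. The SOXD genes SOX5, SOX6 and SOX13 had 38 lower and 7 higher of 148, with a median log2 fold change of -0.13. The SOXE genes SOX8, SOX9 and SOX10 had 16 lower and 10 higher of 80, with 8 of the 10 at SOX9. The SOXF genes SOX7, SOX17 and SOX18 had 5 lower and 1 higher of 63, and SOX15 with SOX30 had 4 lower and 2 higher of 40. Around POU3F2, POU3F3, POU5F1 and PAX6, partners of SOXB1 and SOXC proteins, 8 were lower and 6 higher of 76. Around TEAD2, TUBB3, DCX and STMN2, which include SOXC targets and neuronal genes, 8 were lower and 5 higher of 79.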

How the data were processed

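ATAC-seq was measured in 58 samples of H9-derived CNCCs. The deposited values were whole-number read counts per RE and sample. Per the study's methods, the authors trimmed reads with skewer v0.2.2, aligned them to hg38 with Bowtie2 v2.4.1, removed duplicates, mitochondrial and low-quality reads with SAMtools v1.10, called summits with MACS2 v2.2.7.1, and extended and merged them across samples into 151457 REs with bedtools. The counting tool is not given in the sources used here. REs were therefore called in these same cells.

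All counts were fitted over the whole table with edgeR 4.0.16 in R 4.3.3 (TMM scaling, quasi-likelihood F test, no count filter, differentiation batch as a covariate), with Benjamini-Hochberg adjustment over all REs and a threshold of 0.05. SE was the absolute log2 fold change divided by the square root of F. Each dose was compared with 0 nM in its own fit, on the samples of that dose and of 0 nM only. The ED50 curves used all 42 samples of the dose series. Each time-course effect was fitted on the samples of its own genotype. Both genotypes entered together in the fit of the interaction term for their difference. They also did so in the fits that left out a time-course batch, so those fits differ from the main ones in more than the omitted samples. Comparisons of doses share the 0 nM samples, and those of times the vehicle samples. Alternatives were DESeq2 1.42.0, RLE scaling, a low-count filter, a replicate block, no batch term, each replicate left out, the S9CC13_R14 samples exchanged, and a 50 kb window. The fits were tested on simulated counts. Sequence and annotation came from hg38 and GENCODE v44, in Python 3.11.15, and all 7 gene names matched. All 58 table columns were matched to samples. Some time-course columns name S9CC47 where the sample titles name S9CC13, and they were matched by batch, treatment and time.

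Replicate labels (clone and differentiation) paired the dose samples: over 87076 REs, deviations from the group means correlated at 0.53 or more for every pair of samples with the same label against 0 nM, except at 5 nM (lowest 0.18), and at -0.11 to -0.13 on average for other pairs. Named REs were, per gene, those covering a start site (at most 2), the 2 largest called changes in each direction at 500 nM and the RE with most CPM, then members called at 1.6 nM and the 5 largest decreases and 2 largest increases at 3 h. SOX1-RE5, SOX1-RE12, SOX2-RE5, SOX11-RE4, SOX12-RE2, SOX12-RE3, SOX12-RE4, SOX12-RE9 and SOX12-RE20 were named after their values were seen. The members, the comparison lists and the markers were chosen with earlier results of these data known. A further neural progenitor marker is not reported here. Total counts of 22905782 to 81040023 per sample set the precision.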

Additional observations from a re-analysis of the deposited data

Results flagged for a closer look

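Among 50 groups of 7 samples tested for a sample far from the others (by Dixon's ratio), 5 were marked, where chance marks about 1 in 20 groups. At 500 nM, S9CC13_R10 had 18.0 CPM at SOX1-RE7 (others 5.29 to 10.1), 1.35 at SOX1-RE10 (others 0.533 to 0.869) and 15.4 at SOX21-RE3 (others 18.8 to 21.1). At 500 nM, S9CC47_R5 had 2.54 CPM at SOX11-RE9 (others 0.664 to 1.45). At 0 nM, S9CC47_R8 had 4.55 CPM at SOX12-RE24 (others 1.91 to 2.85).

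The effect of 500 nM dTAGV-1 differed between SOX9-tagged and WT cells at 4 named REs after 3 h, by edgeR's interaction test. The tagged effect minus the WT effect was -2.16 on the log2 scale at SOX1-RE10 (adjusted p = 1.6e-06), -0.768 at SOX2-RE15 (0.034), -3.02 at SOX4-RE2 (3.1e-07) and -0.765 at SOX12-RE6 (0.019). Of these, SOX2-RE15 and SOX12-RE6 each lost the call when 1 batch of a genotype was left out. After 24 h it was -2.96 at SOX1-RE10 (2.2e-08), -0.94 at SOX2-RE15 (0.0051), -3.22 at SOX4-RE2 (6.6e-08) and -0.932 at SOX12-RE6 (0.0026). The same difference at 24 h was -0.653 at SOX11-RE1 (0.029), -0.737 at SOX12-RE20 (0.013) and -1.38 at SOX12-RE24 (0.011). At 24 h the SOX11-RE1 call was lost by DESeq2 (0.052) and without the tagged R4, tagged R5 or WT R4 samples (0.15, 0.32 and 0.18). The SOX12-RE24 difference was -0.68 without the tagged R4 samples (0.52), and its call was also lost without the WT R4 or WT R5 samples (0.078 and 0.069). At 24 h SOX2-RE15 was lost without the tagged or WT R4 samples (0.085 and 0.094) and SOX12-RE6 without the tagged R5 samples (0.12). SOX12-RE20 was lost without any 1 of the SOX9-tagged or WT samples of R4 or R5 (0.055 to 0.21).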

How the results depend on the processing

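Of the alternatives for counts of called members, 103 gave values within 1.5 times the reported count and 28 did not. The replicate block of the dose series, where replicate labels paired the samples, gave 23 calls at the 500 nM dose and 25 at 16 nM, while 5 nM had 6 calls, 1.6 nM had 1 call and 0.5 nM had 0. Without a batch term (no replicate block) the counts were 9 at 500 nM, 6 at 16 nM and 1 at 5 nM. For the 3 h, 24 h and both interaction comparisons they were 0. The edgeR adjusted p at 3 h was then 0.35 for SOX1-RE10 and 0.095 for SOX4-RE2. Over all REs these fits called 15104 at 500 nM, 7717 at 16 nM and 2145 at 5 nM. They called 0 of all REs at 3 h, 969 at 24 h, and 684 and 1587 for the interactions at 3 and 24 h. The block or its absence changed no call in WT cells or between untreated genotypes. A 50 kb window, which holds 68 members, gave 11 calls at 500 nM, 2 at 3 h, 6 at 24 h, and 2 and 3 for the interactions at 3 and 24 h.

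Leaving out 1 replicate gave 12 to 19 calls at 500 nM, 9 to 23 at 16 nM, 4 to 9 at 5 nM, 0 to 2 at 0.5 nM, 2 to 3 at 3 h, 4 to 5 at 24 h, 2 to 7 and 3 to 5 for the interactions at 3 and 24 h, and 0 to 2 for untreated tagged against WT cells. With 1 sample in an arm, that sample was assumed to vary like the other groups. For the SOX9-tagged effects at 3 and 24 h, calls over all REs fell as well when a batch was left out.

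Of the log2 fold changes of named REs, 314 kept direction and side of the threshold, 27 lost and 3 gained the call, and 11 changed sign. All 11 lay near 0. SOX14-RE3 was 0.01 by DESeq2 (0.0109), 0.009389 with RLE scaling, 0.002615 with the replicate block, 0.003836 without a block, 0.06003 with the S9CC13_R14 samples exchanged, and -0.02459 to 0.05554 when 1 replicate was left out, positive without S9CC13_R13, S9CC13_R14 or S9CC13_R6 (0.05554, 0.01112 and 0.03962). SOX12-RE8 was 0.01641 with the exchange and -0.01571 to 0.01564 when 1 replicate was left out, positive without S9CC13_R14 or S9CC47_R6. On the log2 scale the ED50 moved to 20.7% for SOX1-RE10 and 13.7% for SOX4-RE2. The cause of these changes was not tested. Depth limits weak REs most, since 28 of the 95 members had at most 2 CPM in untreated cells.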
